A study of Homo sapiens with 2 samples.

Results

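The 10 genes described here encode the switch that couples cellular stress to protein synthesis. They are the 4 eIF2 kinases EIF2AK1 (HRI), EIF2AK2 (PKR), EIF2AK3 (PERK) and EIF2AK4 (GCN2), their substrate eIF2α (EIF2S1), and the 5 subunits of eIF2B (EIF2B1 to EIF2B5). The genes were chosen by symbol, and all 10 were found among the 57485 genes of the deposited tables. RNA was measured by poly(A)-selected RNA-seq in ARP1 cells, a human multiple myeloma line that carried an shRNA against SRD5A1, steroid 5α-reductase type 1, in the doxycycline-inducible lentiviral vector TRIPZ. One library came from cells grown without doxycycline (without Dox) and 1 from cells grown with it (with Dox), and both came from the same engineered line. The dose and duration of doxycycline for these 2 libraries were not given in the sources used here, nor was it stated whether the transduced cells were a pool or 1 clone. The genotype label of the with-Dox sample names SRD5A2, whereas its title names SRD5A1. No library of doxycycline-treated cells without the hairpin was analysed here, so an effect of the drug and an effect of the hairpin cannot be told apart.

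eIF2 carries the initiator methionyl-tRNA to the ribosome in its GTP-bound form, and eIF2B is the exchange factor that reloads it with GTP. Each kinase senses a different stress and phosphorylates eIF2α on the same serine, which turns eIF2 from a substrate of eIF2B into its inhibitor. General translation then slows, while mRNAs with suitable upstream reading frames, such as ATF4, are translated more, a program called the integrated stress response. Plasma cells and myeloma cells secrete large amounts of immunoglobulin and are known to depend on the control of protein folding and of this pathway. RNA levels report neither the phosphorylation of eIF2α nor the activity of eIF2B.

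The libraries held 45918570 and 48728927 assigned read counts without and with Dox. With 1 library per condition there was no replicate error, so no difference was tested and no p-value is given. Intervals are 95% exact Poisson intervals for levels and 95% Clopper-Pearson intervals for ratios, and they cover counting error only. Changes are log2 ratios of FPKM (fragment counts scaled by transcript length and by library depth) with Dox over without Dox after adding 0.1 FPKM. They were computed for the 14859 genes that reached 1 FPKM in either library. All 10 genes passed that filter in both libraries. A change was counted when it passed 2-fold in either direction. The targeted gene went against its label: SRD5A1 stood at 13.0 FPKM (1375 counts) without Dox and 25.9 FPKM (3014 counts) in the library labelled with Dox, a log2 ratio of 0.98 (interval 0.90 to 1.08). Directions below follow the labels, and every log2 ratio would change sign if the labels of the 2 libraries were exchanged. The labelled cell type was checked against 9 plasma cell markers, and all 9 were expressed, from 15.7 FPKM for SLAMF7 to 5444 FPKM for JCHAIN without Dox. The summed level of the 3 T cell markers was 0.31 FPKM without and 0.22 FPKM with Dox, with CD3D and CD3G at 0, and that of the 3 myeloid markers was 0.51 and 0.96 FPKM. The 3 erythroid markers summed to 3.65 and 3.33 FPKM.

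All 4 stress kinases were expressed in both libraries, and EIF2AK1 RNA was the most abundant by a wide margin. None of the 10 genes passed 2-fold in either direction, where 17.0% of all tested genes passed it upward with Dox and 6.41% downward. Below that threshold the 4 kinases had log2 ratios above 0, of which EIF2AK2 and EIF2AK3 turned negative with TMM or DESeq2 scaling of the counts. EIF2S1 and 4 of the 5 eIF2B subunits had ratios below 0 on every scale tried, and that of EIF2B2 was above 0 as deposited and below 0 with TMM or DESeq2 scaling. Over all tested genes 58.4% had a ratio above 0 and the median was 0.15, with quartiles of -0.32 and 0.71. Measured against that median, 3 of the 4 kinases lay above it and all 5 eIF2B subunits and EIF2S1 lay below it. Among genes that reached 5 FPKM in either library the median was 0.08, and all 4 kinases lay above it. The scaling of the 2 libraries matters for these small values. Compared with deposited FPKM, the median of all genes moved by -0.19 for counts scaled by edgeR's TMM factors and by -0.20 for DESeq2-scaled counts. It moved by -0.20 for FPKM divided by TMM factors. The share of changed genes that were higher was 72.6% with deposited FPKM, 57.3% with TMM-scaled counts and 56.4% with DESeq2-scaled counts.

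EIF2AK1 encodes the heme-regulated inhibitor, which responds to heme deficiency and, through DELE1, to mitochondrial stress. Its RNA stood at 74.3 FPKM without Dox (interval 72.7 to 75.9, 8569 counts) and at 99.8 FPKM with Dox (98.0 to 102, 12804 counts). The with-Dox library was the higher one, with a log2 ratio of 0.42 (interval 0.39 to 0.47). Among the genes that reached 1 FPKM in the same library, EIF2AK1 stood above 87.9% without Dox and 92.7% with Dox. EIF2AK1 made up 64.7% of the summed FPKM of the 4 kinases without Dox and 67.1% with Dox. Its share depended on the length used: it was 50.5% and 54.4% of the kinases' counts, and 58.7% and 62.3% when each gene's counts were divided by the length of its longest protein-coding transcript. EIF2AK1 was the leading kinase on each of these scales.

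EIF2AK1 lies at chr7:6022244-6059230 on the minus strand (GRCh38, GENCODE release 29), and 532 of its exonic bases, 9.59%, overlap exons of AIMP2 on the other strand. Whether the counting used strand was not stated, so reads from those bases cannot be assigned with certainty. AIMP2, a scaffold protein of the aminoacyl-tRNA synthetase complex, stood at 42.9 and 41.3 FPKM. The mean transcript length given for EIF2AK1, 2755 bases without and 2879 bases with Dox, lay between its longest transcript of 4469 bases and the next of 905 bases. If that value is the average over the listed transcripts weighted by their abundance, the longest transcript made up 51.9% to 56.0% of EIF2AK1 molecules without Dox and 55.4% to 59.2% with Dox.

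EIF2AK3 encodes PERK, the kinase of the endoplasmic reticulum membrane that responds to unfolded protein. In deposited FPKM it was second among the kinases in both libraries, at 16.8 FPKM without Dox (interval 16.2 to 17.4, 2686 counts) and 20.0 FPKM with Dox (19.3 to 20.7, 3135 counts). Its log2 ratio was 0.25 (interval 0.18 to 0.33). The ratio was 0.14 on CPM (counts scaled by library depth alone) and turned negative in 2 of 10 alternative settings, with a range of -0.08 to 0.35. EIF2AK3 lies at chr2:88556741-88627576 on the minus strand, and overlaps 2 antisense genes on the other strand. AC104134.1 shares 781 of its exonic bases, 14.4%, and has no level used here, and AC062029.1 shares 38 and stood at 1.35 and 4.60 FPKM. Of the other sensors of unfolded protein, ATF6, a membrane-bound transcription factor named after its values were seen, stood at 13.6 and 16.2 FPKM, a log2 ratio of 0.25 like that of EIF2AK3. ERN1, which encodes the sensor IRE1α, rose from 12.1 to 138 FPKM (log2 ratio 3.50). It was the 1 of 3 tested sensor genes past 2-fold, where 17.0% of all tested genes were past 2-fold higher.

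EIF2AK4 (chr15:39934146-40035591, plus strand) encodes GCN2, which is activated by uncharged tRNA and stalled ribosomes when amino acids are short. It stood at 11.9 FPKM without Dox (interval 11.4 to 12.3, 2666 counts) and 16.1 FPKM with Dox (15.6 to 16.6, 3945 counts). Its log2 ratio was 0.44, with an interval of 0.37 to 0.51 that overlapped that of EIF2AK1 at 0.42, and on CPM EIF2AK1 was the higher of the pair, at 0.49 against 0.48. The ratio of EIF2AK4 stayed positive in all 10 alternative settings, from 0.23 to 0.53, though the filter settings cannot change it. With longest-transcript lengths its with-Dox level of 15.4 FPKM passed the 14.6 FPKM of EIF2AK3, so the order of those kinases with Dox depends on the length used.

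EIF2AK2 (chr2:37099210-37157065, minus strand) encodes PKR, which binds double-stranded RNA and is a known interferon-induced gene. It stood at 11.9 FPKM without Dox (interval 11.5 to 12.3, 3031 counts) and 12.9 FPKM with Dox (12.5 to 13.3, 3663 counts). The log2 ratio was 0.12 (interval 0.05 to 0.19). That is below the median of all tested genes, 0.15, but above the 0.08 of genes that reached 5 FPKM in either library. It turned negative in 4 of 10 alternative settings, all those with TMM, DESeq2 or median-centred scaling. Without Dox its interval overlapped that of EIF2AK4, so the order of those kinases was not resolved by counting, while with Dox EIF2AK4 was higher. EIF2AK2 has the longest transcript of the kinases, 10042 bases, and its level was 6.74 and 7.67 FPKM when that length was used.

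The promoter of EIF2AK2 is shown because it holds letters of the interferon-stimulated response element at the transcription start. The element's core was searched as GAAA, then 2 bases of any kind, then GAAA, on both strands of the 300 bases around each start. Sequences are from RefSeq, the printed 262 bases end 12 bases after the start, and capitals mark the match.
EIF2AK2 (GRCh38.p14, chr2:37156969-37157230, minus strand): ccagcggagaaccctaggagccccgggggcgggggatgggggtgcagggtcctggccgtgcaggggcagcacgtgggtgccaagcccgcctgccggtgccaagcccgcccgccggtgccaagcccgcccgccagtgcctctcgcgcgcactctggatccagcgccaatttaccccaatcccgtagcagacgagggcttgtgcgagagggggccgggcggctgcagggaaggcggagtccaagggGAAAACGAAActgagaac
The match runs from 6 bases before the start to 4 bases after it. The same core was present in 3.57% of the 35116 promoter windows and in none of the other 8 genes that had a window. EIF2AK1 had no entry in the sequence table. Among 12 genes of double-stranded RNA sensing and interferon response, 6 were tested and none of them passed 2-fold in deposited FPKM, with a median log2 ratio of -0.30, while ISG15 passed it downward with TMM or DESeq2 scaling of the counts. OAS2, an activator of RNase L, stood at 19.5 and 25.3 FPKM (log2 ratio 0.37), and ISG15, a ubiquitin-like modifier, at 16.5 and 8.73 FPKM (log2 ratio -0.91).

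Together the 4 kinases summed to 115 FPKM without Dox and 149 FPKM with Dox. EIF2AK1 stood 4.42-fold above EIF2AK3 without Dox and 4.99-fold with Dox. Proteins that act on the kinases were covered by a list of 10 genes, all tested, of which none passed 2-fold in deposited FPKM and 1, IMPACT, did on CPM, on TPM (which scales by the sum over all genes) and with TMM or DESeq2 scaling of the counts. IMPACT, an inhibitor of GCN2 activation named after its values were seen, had 478 counts without and 1469 with Dox, a log2 ratio of 0.97 in FPKM and 1.52 on CPM. Ratios were below 0 for 8 partners in FPKM, 5 on CPM and 4 on TPM, with medians of -0.03, 0.00 and 0.07. HSPA5, the endoplasmic reticulum chaperone BiP that holds PERK inactive, stood at 223 and 173 FPKM (log2 ratio -0.37). ADAR, the deaminase that edits double-stranded RNA and so limits PKR, stood at 176 and 157 FPKM (log2 ratio -0.16). The ratios of the 10 partners ran from -0.75 to 0.97 and those of the kinases from 0.12 to 0.44.

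EIF2S1 encodes eIF2α, the subunit that all 4 kinases phosphorylate. In deposited FPKM it was the most abundant of the 10 genes in both libraries, at 232 FPKM without Dox (interval 227 to 237, 8995 counts) and 149 FPKM with Dox (146 to 153, 7153 counts). The with-Dox library was the lower one, with a log2 ratio of -0.64 (interval -0.68 to -0.59). The ratio was -0.42 on CPM, and the deposited effective length of the gene was 845 bases without and 985 bases with Dox. The ratio was negative in all 10 alternative settings, from -0.84 to -0.42, though the filter settings cannot change it. With the longest coding transcript of each gene, EIF2S1 stood at 46.2 FPKM without and 34.6 FPKM with Dox. EIF2B5 then stood higher, at 73.9 and 49.2 FPKM, so the rank of EIF2S1 depends on the length used.

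The other subunits of eIF2 went the other way. EIF2S2, the β subunit that binds the exchange factor, rose from 79.0 FPKM (8753 counts) to 172 FPKM (20176 counts), a log2 ratio of 1.12 (interval 1.08 to 1.16). It was past 2-fold as deposited and at 0.97, short of it, once centred on the median of all genes. With TMM or DESeq2 scaling EIF2S2 was also short of 2-fold. EIF2S3, the γ subunit that binds GTP and tRNA, stood at 144 FPKM without and 183 FPKM with Dox (log2 ratio 0.34, interval 0.31 to 0.37), and was named after its values were seen because it completes the complex. The ratio of EIF2S1 to EIF2S2 was 2.94 without Dox and 0.868 with Dox, and that of EIF2S1 to EIF2S3 was 1.61 and 0.815. The 3 subunits form a complex in equal parts, so these are RNA ratios and not a composition of the protein.

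The order of the subunits rests on the length assigned to EIF2S1. Its mean transcript length was 1088 bases without and 1230 bases with Dox, while its longest transcript has 4485 bases, which could then hold at most 14.2% and 17.8% of EIF2S1 molecules. With the longest coding transcript of each gene, EIF2S1 was the lowest subunit, at 46.2 and 34.6 FPKM, and its ratio to EIF2S2 was 0.585 without and 0.202 with Dox. On both lengths the ratio was lower with Dox. EIF2S1 lies at chr14:67359997-67386516 on the plus strand, and 269 of its exonic bases, 4.76%, overlap exons of ATP6V1D, a proton pump subunit, on the other strand. ATP6V1D stood at 17.4 FPKM without and 35.4 FPKM with Dox, the opposite direction to EIF2S1.

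eIF2B is a decamer of 2 copies of each of 5 subunits, in which EIF2B5 and EIF2B3 encode the catalytic ε and γ subunits and EIF2B1, EIF2B2 and EIF2B4 encode the regulatory α, β and δ subunits that bind phosphorylated eIF2. EIF2B5, the exchange enzyme itself, was the most abundant, at 97.9 FPKM without Dox (interval 95.8 to 100.1, 8191 counts) and 67.6 FPKM with Dox (65.9 to 69.4, 5784 counts). Its log2 ratio was -0.53 (interval -0.58 to -0.49). EIF2B3, its catalytic partner, was the least abundant in deposited FPKM, at 22.7 FPKM without Dox (21.5 to 23.9, 1403 counts) and 12.2 FPKM with Dox (11.4 to 13.0, 813 counts). Its log2 ratio of -0.89 (interval -1.02 to -0.77) was the lowest of the 10 genes, and its level was 1.86-fold higher without Dox. The interval reaches past 2-fold, and EIF2B3 passed 2-fold in 4 of the 10 alternative settings.

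The regulatory subunits were less uniform. EIF2B4 stood at 47.0 FPKM without Dox (interval 45.4 to 48.6, 3259 counts) and 32.3 FPKM with Dox (31.0 to 33.6, 2401 counts), a log2 ratio of -0.54 (interval -0.62 to -0.46). EIF2B1 stood at 48.9 FPKM without Dox (47.4 to 50.3, 4481 counts) and 37.7 FPKM with Dox (36.5 to 39.0, 3497 counts), a log2 ratio of -0.37 (interval -0.44 to -0.31). EIF2B2 stood at 42.0 FPKM without Dox (40.1 to 44.0, 1771 counts) and 43.6 FPKM with Dox (41.7 to 45.5, 2043 counts). Its 2 intervals overlapped, and its log2 ratio of 0.05 had an interval from -0.04 to 0.15. The ratio turned negative in 4 of 10 alternative settings, all those with TMM, DESeq2 or median-centred scaling. In deposited FPKM EIF2B2 was thus the 1 eIF2B subunit for which no difference beyond counting error was detectable. Its ratio was 0.12 on CPM and -0.10 with DESeq2-scaled counts, so its direction depended on the scaling.

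In sum over the 5 subunits, eIF2B RNA stood at 258.5 FPKM without and 193 FPKM with Dox. The most abundant subunit exceeded the least abundant 4.32-fold without Dox and 5.55-fold with Dox. With longest-transcript lengths EIF2B2 stood at 9.47 and 10.3 FPKM, below the 18.2 FPKM of EIF2B3 without Dox and above its 9.95 FPKM with Dox. The longest EIF2B2 transcript has 4314 bases against a mean of 1161 bases without Dox, and the spread became 7.80-fold without and 4.95-fold with Dox. The order of EIF2B1 and EIF2B4 was not resolved without Dox, where their intervals overlapped, and was resolved with Dox. The 1 other pair of neighbours in level whose intervals overlapped, apart from EIF2AK2 and EIF2AK4 without Dox, was EIF2AK2 and EIF2B3 with Dox.

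Some eIF2B genes share exonic sequence with a neighbour. EIF2B1 lies at chr12:123620406-123633766 on the minus strand, and 536 of its exonic bases, 14.8%, overlap DDX55, an RNA helicase gene on the other strand that stood at 33.2 FPKM without and 20.5 FPKM with Dox. DDX55 was therefore lower with Dox, as EIF2B1 was, and the part of shared reads was not tested. EIF2B3 (chr1:44850522-44986722, minus strand), EIF2B4 (chr2:27364352-27370486, minus strand), EIF2B2 (chr14:75002911-75012366, plus strand) and EIF2B5 (chr3:184135038-184146112, plus strand) overlap antisense or pseudogene annotations, whose levels were not used here. For EIF2B5, 6 of the 16 listed transcripts carry the same version in GENCODE release 29.

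The promoters of EIF2B1, EIF2B2 and EIF2B5 are shown because these eIF2B genes share the core letters bound by ETS family factors, CGGAAGT. It was searched on both strands of the same 300-base windows, and capitals mark each match, written ACTTCCG where it lies on the other strand.
EIF2B1 (GRCh38.p14, chr12:123633675-123633936, minus strand): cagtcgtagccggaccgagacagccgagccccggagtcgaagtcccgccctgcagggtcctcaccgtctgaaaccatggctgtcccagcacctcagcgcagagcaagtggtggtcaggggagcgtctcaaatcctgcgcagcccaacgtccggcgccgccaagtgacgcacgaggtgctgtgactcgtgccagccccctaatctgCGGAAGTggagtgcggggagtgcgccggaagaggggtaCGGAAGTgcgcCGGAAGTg
EIF2B2 (GRCh38.p14, chr14:75002671-75002932, plus strand): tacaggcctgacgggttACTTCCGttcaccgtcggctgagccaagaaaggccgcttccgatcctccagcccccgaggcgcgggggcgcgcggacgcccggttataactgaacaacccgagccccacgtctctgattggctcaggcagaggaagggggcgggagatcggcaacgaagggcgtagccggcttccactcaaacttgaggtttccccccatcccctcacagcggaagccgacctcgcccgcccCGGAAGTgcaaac
EIF2B5 (GRCh38.p14, chr3:184135108-184135369, plus strand): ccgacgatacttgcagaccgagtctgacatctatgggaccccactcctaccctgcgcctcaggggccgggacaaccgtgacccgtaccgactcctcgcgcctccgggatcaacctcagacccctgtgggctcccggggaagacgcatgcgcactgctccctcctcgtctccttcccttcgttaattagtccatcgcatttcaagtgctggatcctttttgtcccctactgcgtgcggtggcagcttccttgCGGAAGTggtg
EIF2B1 held 3 matches, EIF2B2 held 2, and EIF2B5 held 1 that begins 2 bases after the start. The core was thus present in 3 of 5 eIF2B genes and in none of the 3 kinase genes with a window, and in 6.83% of all windows. In deposited FPKM the ratios of these 3 genes were -0.37 for EIF2B1, 0.05 for EIF2B2 and -0.53 for EIF2B5. All 3 were below 0 with TMM, DESeq2 or median-centred scaling. Whether the shared letters bear on the ratios was not tested. The core of the C/EBP-ATF response element, TGATGNAA, through which ATF4 acts, was present in 3.62% of windows, in none of the 9 genes with a window, and in 4 of 10 genes of the stress output list, ATF3, ASNS, CHAC1 and CEBPG. A gene counted as matched if any of its windows held the core, and some genes have more than 1 window. Shares of genes are therefore not directly comparable with shares of windows. The 3 motifs were chosen with the ratios known, and a match of letters is not evidence of binding.

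The genes around the switch showed where larger changes lay. Over all tested genes 17.0% were past 2-fold higher with Dox and 6.41% past 2-fold lower. Of the 10 genes of ATF4 and its output, 9 rose past 2-fold and the other, ATF5, was past 2-fold lower with TMM or DESeq2 scaling of the counts but not in deposited FPKM (median log2 ratio 2.81). The largest were SESN2, a regulator of amino acid sensing (6.87 to 173 FPKM, log2 ratio 4.63), ATF3, a stress transcription factor (3.94 to 99.7 FPKM, 4.63), CHAC1, which degrades glutathione (3.28 to 73.7 FPKM, 4.45), and TRIB3, a pseudokinase that restrains ATF4 (12.1 to 167 FPKM, 3.77). ATF4 itself, named after its values were seen, rose from 406 to 1027 FPKM (log2 ratio 1.34). Of the 5 genes of the eIF2α phosphatases, 1 rose past 2-fold, a share near that of all tested genes. It was PPP1R15A, the stress-induced subunit GADD34 that directs the phosphatase to eIF2α, from 34.7 to 213 FPKM (log2 ratio 2.61). The other phosphatase genes lay well below PPP1R15A: PPP1R15B had 0.78, PPP1CB 0.33, PPP1CC -0.06 and PPP1CA -0.32. The median of the phosphatase list was 0.33, against 0.34 for the kinases, whose ratios were at most 0.44.

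Translation initiation factors outside eIF2 and eIF2B were mostly below 0. Of 25 such genes, 2 rose past 2-fold, none was past 2-fold lower in deposited FPKM but 2 were with TMM-scaled counts, and 17 had ratios below 0 (median -0.24). Over all tested genes 17.0% rose past 2-fold, and 58.4% had ratios above 0, as 8 of these 25 genes did. The 2 that rose were EIF1, which guards start codon choice (384 to 1388 FPKM, log2 ratio 1.85), and its paralog EIF1B (24.0 to 61.9 FPKM, 1.37), whose reads may be split between them where their sequences are alike. Of the 9 tested genes among other eIF2 subunits and eIF2 helpers, EIF2S2 was the 1 that passed 2-fold in deposited FPKM, where 17.0% of all tested genes rose past it. With TMM-scaled counts EIF2S2 did not pass it, and EIF5B passed it downward. The list's median was 0.19, or -0.03 with TMM-scaled counts. Over the 7 lists no gene was past 2-fold lower as deposited, and 5 were with TMM-scaled counts. The median of the 10 switch genes was -0.16, against 0.15 over all genes.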

How the data were processed

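Poly(A)-selected RNA from 1 library without and 1 with Dox was sequenced as paired reads of 150 bases. For each library the authors deposited a table of expected counts, TPM and FPKM per gene, in the column layout of RSEM, with mean and effective lengths. The submitters' processing notes name HISAT2 2.1.0, StringTie 1.3.4d, Bowtie 0.12.2 and hg19, without roles. Of the 204675 listed transcripts, 202888 carry an identifier and version found in GENCODE release 29 (GRCh38), which gave the coordinates, transcript lengths and overlaps used here, and the build of the deposited alignment was therefore not settled. The deposited expected counts were used unrounded, since no count model was fitted: 33.8% and 33.6% of genes with a count had a value that was not whole.

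Log2 ratios were computed from deposited FPKM plus 0.1, for genes that reached 1 FPKM in either library, and counted past 2-fold. Deposited TPM, CPM, and counts scaled by edgeR 4.0.16 (TMM) or DESeq2 1.42.0 size factors (R 4.3.3) served as alternatives. Neither edgeR's nor DESeq2's test was run, because 1 library per condition gives no estimate of the spread. Intervals were computed with scipy 1.17.1 and checked on simulated Poisson counts with 1 length per gene. That check does not cover replicate error or lengths that differ between the libraries. The genes and lists were chosen with earlier results of these data known. Of each pathway list, up to 4 genes past 2-fold that reached 5 FPKM in either library were named by size of change, or the 2 most abundant where none passed; 107 listed genes were found, 3 of them under an older symbol. SRD5A1 and marker genes were named as checks. Promoters (RefSeq, GRCh38.p14) were matched by symbol for 9 of the 10 genes. One marker list is not reported here.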

Additional observations from a re-analysis of the deposited data

How the results depend on the processing

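No gene of the 10 passed 2-fold with a pseudocount of 0.01 or 1 FPKM, with no filter or a minimum of 5 FPKM, with TPM, or with CPM. With TMM-scaled counts, DESeq2-scaled counts, FPKM centred on the median of all genes, and FPKM divided by TMM factors, 1 gene passed, EIF2B3. The median log2 ratio of the 10 genes was -0.064 with TPM, and -0.36, -0.37, -0.31 and -0.37 in those 4 settings, where 5, 6, 2 and 4 pathway genes were more than 2-fold lower against 0. The number more than 2-fold higher was 13 to 15 in every setting, against 14, but the genes were not the same throughout. EIF2S2 fell short of 2-fold in those 4 settings. IMPACT passed it with TPM, with CPM, and with TMM-scaled or DESeq2-scaled counts. Signs changed for EIF2AK2 and EIF2B2 in 4 of 10 alternatives, the same 4 in which EIF2B3 passed 2-fold. The sign changed for EIF2AK3 in 2, with TMM-scaled and DESeq2-scaled counts, and for no other of the 10 genes. The filter settings cannot change a gene's own ratio and the pseudocounts moved it little, so those settings say little about the signs. The share of EIF2AK1 among the 4 kinases was 50.5% without and 54.4% with Dox by counts, and 58.7% and 62.3% with longest-transcript lengths, which also gave the eIF2B spread of 7.80-fold and 4.95-fold. FPKM divided by TMM factors and the longest-transcript lengths were added once the data had been seen. No paired analysis was possible because each condition had 1 library. Depth limits EIF2B3 most, at 813 counts with Dox (11.4 to 13.0 FPKM), and the spread between cultures is unknown.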
